A study of Mus musculus with 16 samples.

Results

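The 7 genes described here mark cholinergic motor neurons of the spinal cord: *Chat*, *Slc5a7*, *Slc18a3*, *Ache*, *Mnx1*, *Isl1* and *Isl2*. They were picked by symbol from the 18167 genes of the processed table, and all 7 had a value in every mouse. In end-stage mutant mice 6 of the 7 were lower than in old wild-type mice, with *Isl1* as the exception. *Chat*, *Mnx1*, *Isl1* and *Isl2* are also among the markers with which the study itself followed motor neurons, so their results are not independent of it. *Chat* had the largest decrease of the members on the log2(1 + FPKM) scale, and *Mnx1* the largest percent decrease in mean FPKM.

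Motor neurons of the ventral horn release acetylcholine onto skeletal muscle. The transmitter is made from choline and acetyl-CoA by choline acetyltransferase (*Chat*), loaded into vesicles by the vesicular acetylcholine transporter (*Slc18a3*) and broken down in the synaptic cleft by acetylcholinesterase (*Ache*), after which choline is taken back up by the high-affinity transporter (*Slc5a7*). *Mnx1*, *Isl1* and *Isl2* are homeodomain transcription factors that direct motor neuron identity during development and stay on in part of the adult population. Spinal cord also holds other cholinergic cells, such as preganglionic autonomic neurons and interneurons, so none of these genes is specific to somatic motor neurons.

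Spinal cord RNA of 16 mice was sequenced, 1 library each, to follow gene expression in a model of amyotrophic lateral sclerosis. Both lines are on C57BL/6N. The mutant line, Tg(Prnp-PFN1*G118V)838Kiaei/J, expresses human profilin1 bearing G118V, and the line called wild-type, Tg(Prnp-PFN1)850Kiaei/J, expresses the human protein without it. The groups were 3 wild-type young (WY) and 3 mutant young (MY) mice of 50 days, 5 wild-type old (WO) mice of 190 to 294 days and 5 mutant old (MO) mice of 175 to 245 days. Libraries were made in 2 batches, and batch 2 held 2 MO and 2 WO mice. Both transgenes sit in a mouse prion protein vector, so expression is not restricted to neurons, each genotype is a single line, and no group lacked a transgene. All mice were labelled male. MO mice were taken when they no longer righted themselves, so their ages differ, and both 294-day WO mice were older than every MO mouse. Values are log2(1 + FPKM), where FPKM is fragments scaled to transcript length and to the mapped total, corrected for batch by the authors. The table holds no counts, so the number of reads behind a single value is unknown, and the library sizes stated by the study were not used here.

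Markers of neurons and glia ranged from high to low, and those of neighbouring tissues were not all absent. The mean log2 level over the 16 mice was 10.43 for the synaptic gene *Snap25* and 10.17 for the astrocyte gene *Gfap*. It was 0.32 for the transmitter gene *Tph2* and 1.18 for the microglia gene *Itgax*, below the 1.52 of the sensory ganglion gene *Pou4f1*. Sensory ganglion genes *Prdm12* (at most 0.088), *Scn10a* (at most 0.017) and *Scn11a* (at most 0.047) were near 0 in every mouse, as were the muscle genes *Myh4* (at most 0.044) and *Myh2* (at most 0.085), all named after their values were seen. Other genes of these lists were present, up to 1.68 for *Pou4f1*, 1.01 for *P2rx3*, 2.08 for *Mylpf* and 1.71 for *Tnni2*.

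Libraries MO5 and WY1 stood apart. MO5 had *Xist*, the transcript of the inactive X, at 3.21, whereas no other library exceeded 0.37, and its Y-linked *Ddx3y* was at 1.95 with every other library at 4.06 or more, so MO5 went against its male label. WY1 was far below WY2 and WY3 in several neuronal genes. Its muscarinic receptor gene *Chrm2* was at 2.10, against 3.85 and 3.71 in the other WY mice, and its *Chat* level was under that of every MO mouse. Fits without either library are given for some of the members' results, as stated there. For the other genes in WO vs. MO, list counts and lost FDRs without MO5 are given where they differed. Their values include MO5. Levels, sums and correlations include both. *Mbp*, a myelin gene, was at 5.36 in WO4 and at 12.16 or more in every other mouse.

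Reads were aligned to mm10, which is GRCm38. In its GENCODE M21 annotation *Chat* (ENSMUSG00000021919.8) spans chr14:32408203-32465989 on the minus strand in 17 exon blocks. *Slc18a3* (ENSMUSG00000100241.1) is a gene of 1 exon at chr14:32462438-32464850, on the same strand and wholly inside a *Chat* intron of 3764 bases, and 0 of its bases lie in a *Chat* exon. The other members are on separate loci: *Slc5a7* at chr17:54273590-54299034, *Ache* at chr5:137287519-137294466, *Mnx1* at chr5:29473034-29478470, *Isl1* at chr13:116298281-116309689 and *Isl2* at chr9:55538672-55546180. An antisense transcript overlaps *Chat* (Gm2990), *Ache* (Gm42456) and *Isl2* (Gm17226). The kit kept strand, but whether the authors' counting used it was not given in the sources used here, so reads of such pairs may not have been told apart.

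**Figure D1:**
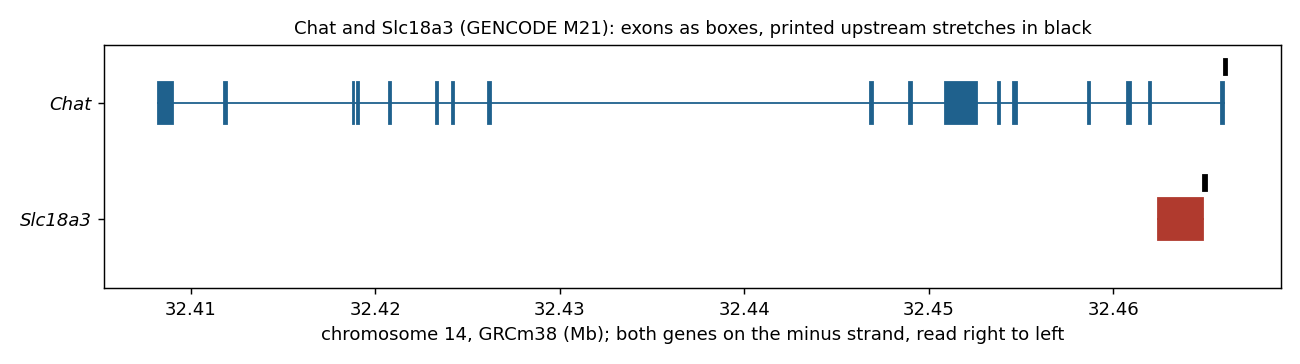
Map of *Chat* and *Slc18a3* on chromosome 14 (GRCm38, horizontal axis in Mb). Boxes are exons, the line is the *Chat* gene body, and the black bars are the upstream stretches printed in the text. *Slc18a3* fills most of a *Chat* intron of 3764 bases and overlaps no *Chat* exon.

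On the FPKM scale, which is per length and allows levels to be compared between genes, *Ache* was the most abundant member, at 115.7 ± 6.43 (SD, n = 5) in WO mice. *Slc18a3* (28.4 ± 3.02) and *Slc5a7* (28.1 ± 2.34) followed and did not differ beyond their spread. *Chat* was at 14.5 ± 0.75 FPKM. The transcription factors were lower, with *Isl2* at 1.75 ± 0.11, *Mnx1* at 1.70 ± 0.29 and *Isl1* at 1.15 ± 0.092, and *Isl2* and *Mnx1* were within each other's spread. For the transporter and the enzyme of the shared locus, *Slc18a3* FPKM over *Chat* FPKM ran from 1.83 in WO3 to 2.64 in WY1. Without WY1 the highest ratio was 2.51, in MO5, and without both it was 2.41, in MO2. Between groups, the mean log2 level was highest in WO and lowest in MO for each of the 7 genes. The MY and WY means lay between, and their ranges of mean ± SD overlapped for each of the 7 genes, although *Isl2* was lower in each MY mouse than in each WY mouse.

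WO vs. MO asks how end-stage mutant mice differ from old mice with the unchanged transgene. Genes with a limma false discovery rate (FDR, Benjamini-Hochberg over all genes of the table) at or below 0.05 are called lower or higher, and those that also change by at least 1.5-fold are called differentially expressed. By the second rule *Chat* alone passed, 1 of 7 against 4.6% of all genes in either direction (94 lower and 742 higher). By the FDR alone 6 of 7 members were lower, against 12.9% of all genes, and the same 6 were lower in every MO mouse than in every WO mouse, against 8.65% of all genes. The median log2 fold change of the 7 was -0.49, beside 0.00035 over all genes. In bulk tissue, fewer cholinergic neurons and less of these RNAs per neuron cannot be told apart.

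*Chat*, the synthesizing enzyme, was at 3.08, 3.72 and 3.72 on the log2 scale in WY1 to WY3, at 3.69, 3.78 and 3.59 in the MY mice, at 4.04, 3.85, 3.92, 3.96 and 3.98 in the WO mice and at 3.39, 3.25, 3.14, 3.40 and 3.20 in the MO mice. Every MO mouse was below every MY and WO mouse, and WY1 was below all of them. *Chat* fell by 0.67 from WO to MO (SE 0.059, FDR = 3.13e-05), the 79th largest decrease of the table, and its mean FPKM was 39.8% lower.

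*Slc5a7*, which returns choline to the terminal, was at 3.99, 4.78 and 4.73 in the WY mice, at 4.86, 4.79 and 4.64 in the MY mice, at 4.93, 4.88, 5.00, 4.75 and 4.73 in the WO mice and at 4.37, 4.55, 4.14, 4.54 and 4.26 in the MO mice. The old groups did not overlap, though WO5 and MO2 were close. The decrease was 0.49 (log2 fold change -0.49, SE 0.087, FDR = 0.00205), below the 1.5-fold rule.

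*Slc18a3*, the vesicular transporter, was at 4.37, 4.56 and 4.71 in the WY mice, at 4.56, 4.77 and 4.70 in the MY mice, at 5.10, 4.80, 4.75, 4.80 and 4.92 in the WO mice and at 4.52, 4.43, 4.14, 4.31 and 4.42 in the MO mice. Again the old groups were separate, and WO1 was the highest mouse. Its log2 fold change was -0.51 (SE 0.083, FDR = 0.00123).

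*Ache*, which hydrolyses acetylcholine, was at 6.66, 6.59 and 6.80 in the WY mice, at 6.65, 6.67 and 6.70 in the MY mice, at 6.94, 6.86, 6.76, 6.82 and 6.95 in the WO mice and at 6.32, 6.32, 6.45, 6.32 and 6.56 in the MO mice. WY1 was not low for this gene, and MO5 was the highest MO mouse. The log2 fold change in WO vs. MO was -0.47 (SE 0.059, FDR = 0.000232).

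*Mnx1*, a motor neuron homeodomain factor, was at 0.95, 1.22 and 1.47 in the WY mice, at 1.18, 1.21 and 1.28 in the MY mice, at 1.62, 1.40, 1.29, 1.28 and 1.54 in the WO mice and at 1.00, 0.99, 0.78, 1.01 and 0.84 in the MO mice. No MO mouse reached the lowest WO mouse. The log2 fold change was -0.50 (SE 0.078, FDR = 0.000847). At levels near an FPKM of 1 the added 1 shrinks a fold change: the mean FPKM was 47.1% lower in MO, and with an added 0.1 in place of 1 the log2 fold change was -0.84, past the 1.5-fold rule.

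*Isl2* was at 1.48, 1.35 and 1.33 in the WY mice, at 1.26, 1.30 and 1.32 in the MY mice, at 1.55, 1.43, 1.45, 1.44 and 1.41 in the WO mice and at 1.05, 0.98, 0.94, 1.21 and 1.02 in the MO mice. The MO mice were again the lowest, MO4 least so. Its log2 fold change was -0.42 (SE 0.052, FDR = 0.000239), and -0.68 with an added 0.1, also past the 1.5-fold rule.

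*Isl1*, the paralog of *Isl2*, was at 0.93, 1.05 and 1.04 in the WY mice, at 1.05, 1.03 and 0.96 in the MY mice, at 1.15, 1.13, 1.11, 0.99 and 1.12 in the WO mice and at 1.08, 1.07, 0.73, 0.90 and 1.14 in the MO mice. The MO mice were spread widely and overlapped the WO mice, with MO3 lowest and MO5 among the WO mice. The log2 fold change was -0.11 (95% interval -0.28 to 0.051, FDR = 0.299), so a moderate decrease is within the interval. It was -0.051 (FDR = 0.581) without MO3, -0.20 (FDR = 0.0544) after quantile normalization and -0.21 (FDR = 0.299) with an added 0.1. The difference of *Isl2* minus *Isl1* in log2 level was between 0.28 and 0.45 in the WO mice and between -0.12 and 0.30 in the MO mice.

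**Figure D2:**
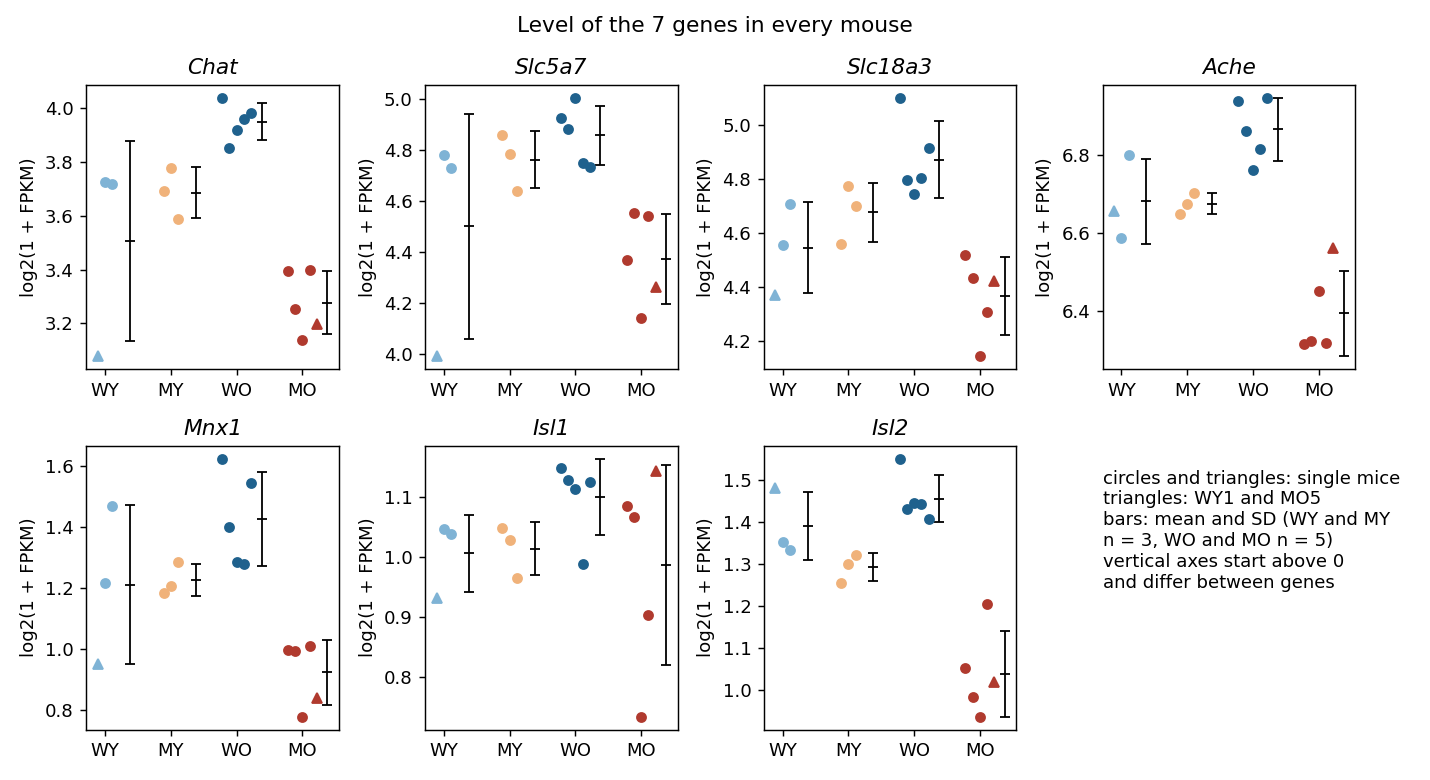
Level of each of the 7 genes in every mouse, as log2(1 + FPKM) on the vertical axis (axes differ and do not start at 0), by group. Points are single mice, triangles mark WY1 and MO5, and bars give the mean and SD (n = 3 for WY and MY, n = 5 for WO and MO). MO mice lie below all WO and MY mice for every gene but *Isl1*.

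The decrease was present in both batches. The WO mice of batch 1 were all 190 days old and those of batch 2 were 294 days old. Batch and age of the WO mice therefore cannot be told apart. *Chat* differed by -0.67 in batch 1 (3 WO and 3 MO mice) and by -0.67 in batch 2 (2 and 2), *Slc5a7* by -0.58 and -0.34, *Slc18a3* by -0.52 and -0.50, *Ache* by -0.49 and -0.44, *Mnx1* by -0.51 and -0.49 and *Isl2* by -0.49 and -0.31, while *Isl1* differed by -0.17 and -0.034. Without MO5 the same 6 members were lower, *Chat* by 0.65 (log2 fold change -0.65, FDR = 0.000142). Other neuronal RNA moved as well, as described for the marker lists. Scaled to the mean of 8 pan-neuronal genes, an alternative chosen after the data were seen that moves the median of all genes to 0.21, *Chat* was at -0.46 (FDR = 5.12e-05) and all 6 stayed below an FDR of 0.05, whereas *Isl1* turned to 0.098 (FDR = 0.252).

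MY vs. MO follows the mutant line from before symptoms to end stage. By the FDR 6 of 7 members were lower in MO, against 12.5% of all genes, and 0 of 7 were differentially expressed by limma with the fold rule, against 4.9% in either direction (143 lower and 747 higher), while 6 had an unadjusted p under 0.05, against 6673 of the 18167 genes. The same 6 lay below every MY mouse in every MO mouse, against 15.9% of all genes. *Chat* had a log2 fold change of -0.41 (SE 0.074, FDR = 0.0053), *Slc5a7* of -0.39 (SE 0.10, FDR = 0.0251) and *Slc18a3* of -0.31 (SE 0.088, FDR = 0.0325). For *Ache* it was -0.28 (FDR = 0.0138), for *Mnx1* -0.30 (FDR = 0.0106) and for *Isl2* -0.25 (FDR = 0.0177). *Isl1* was at -0.027 (95% interval -0.23 to 0.18, FDR = 0.872). Only *Chat* kept its FDR in each fit with 1 mouse left out. *Slc5a7* lost it without MO5, MY1 or MY2, *Slc18a3* without MO4, MY2 or MY3, *Isl2* without any 1 MY mouse, and *Ache* and *Mnx1* without MY3, with an FDR of at most 0.125. *Slc5a7* was at -0.36 (FDR = 0.0509) without MO5. Against the 3 MO mice of batch 1, the batch of all MY mice, *Chat* was at -0.42 (FDR = 0.0124), *Slc5a7* at -0.41, *Ache* at -0.31, *Mnx1* at -0.30, *Isl2* at -0.30 and *Isl1* at -0.052, and *Slc18a3*, at -0.31, lost its FDR (0.0851). With all groups in 1 fit *Slc5a7* lost its FDR (0.0742). Relative to the pan-neuronal genes *Chat* alone was lower (log2 fold change -0.21, FDR = 0.0348). This comparison and WO vs. MO share the MO mice.

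WY vs. WO shows how the genes behave with age under the unchanged transgene. All 7 means were higher in WO, and none passed limma's FDR, where 1.12% of all genes did and 0.253% were also past the fold rule, although 3 members (*Chat*, *Slc18a3* and *Ache*) had an unadjusted p under 0.05, against 2447 of the 18167 genes. *Chat* differed by 0.44 (95% interval 0.12 to 0.76, FDR = 0.204) and was higher in every WO mouse than in every WY mouse, as was *Slc18a3*, 2 of 7 against 3.8% of all genes. Without WY1 the *Chat* difference was 0.23 (FDR = 0.162) and that of *Slc5a7* went from 0.36 to 0.10, of *Slc18a3* from 0.33 to 0.24, of *Ache* from 0.18 to 0.17, of *Mnx1* from 0.22 to 0.085, of *Isl1* from 0.095 to 0.058 and of *Isl2* from 0.066 to 0.11. Without WY3 the difference of *Mnx1* was 0.34 and that of *Isl2* 0.038. With the WO mice of batch 1 alone, the batch of all WY mice, *Chat* differed by 0.43 (FDR = 0.391), *Slc5a7* by 0.44, *Slc18a3* by 0.34, *Ache* by 0.17, *Mnx1* by 0.23, *Isl1* by 0.12 and *Isl2* by 0.086.

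WY vs. MY compares the mutant and wild-type lines at 50 days. With 1 line per genotype, the mutation cannot be told apart from other differences of the lines. The study raises more transcription of the transgene in the mutant line as a possibility, which was not tested here. None of the 7 passed limma's FDR and 0 had an unadjusted p under 0.05, against 1301 of the 18167 genes, and in all genes of the study 0.0055% passed by either rule. Log2 differences ran from -0.097 for *Isl2* (95% interval -0.23 to 0.033) to 0.26 for *Slc5a7* (-0.25 to 0.77), and *Chat* was at 0.18 (-0.25 to 0.61). The intervals of *Slc5a7* and *Chat* hold a 1.5-fold change. Without WY1 *Slc5a7* was at 0.0059, *Slc18a3* at 0.044 (0.13 with it), *Isl2* at -0.051 and *Ache* at -0.018 (-0.0063 with it), and *Chat* turned to -0.034, *Mnx1* to -0.12 (0.014 with it) and *Isl1* to -0.029 (0.0081 with it). Other omissions raised values, with *Slc5a7* at 0.40 without WY2 and *Slc18a3* at 0.21 without WY3. *Isl2*, below every WY mouse in the MY mice, was 1 of 7 against 7.52% of all genes.

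The interaction, (MO - MY) - (WO - WY), tests whether the change with age and disease in mutants differed from the change with age in wild-type mice. By the FDR 6 of 7 members had a lower value, against 7.19% of all genes, and 3 of 7 passed the fold rule too, against 5.61% in either direction (175 lower and 845 higher). These were *Chat* (-0.85, SE 0.17, FDR = 0.00307), *Slc5a7* (-0.75, SE 0.21, FDR = 0.0253) and *Slc18a3* (-0.64, SE 0.14, FDR = 0.00575). *Mnx1* was at -0.52 (FDR = 0.0258), *Ache* at -0.46 (FDR = 0.00324) and *Isl2* at -0.32 (FDR = 0.0131), whereas *Isl1* was at -0.12 (FDR = 0.49). Without WY1 all members but *Isl2* came nearer 0. *Chat* was then at -0.64 (FDR = 0.00103) and was the 1 member past both rules, *Slc5a7* was at -0.49 (FDR = 0.0361), *Slc18a3* at -0.55 (FDR = 0.0196), *Ache* at -0.45 (FDR = 0.01) and *Isl2* at -0.37 (FDR = 0.00943), and *Mnx1*, at -0.39, lost its FDR (0.0735). WY and MY mice were all in batch 1. With batch 1 alone *Chat* was at -0.85 (FDR = 0.0257), *Slc18a3* at -0.65 (FDR = 0.038), *Ache* at -0.48 (FDR = 0.00772) and *Isl2* at -0.39 (FDR = 0.00915), while *Slc5a7* (-0.84, FDR = 0.0575) and *Mnx1* (-0.53, FDR = 0.0802) lost their FDR and *Isl1* was at -0.18. Without both WY1 and MO5, chosen after seeing the data, *Chat* was at -0.62 (FDR = 0.0019) and 4 members passed the FDR. *Slc5a7* lost its FDR without both (0.0539) and without MY1 or MY2 (at most 0.07), and *Mnx1* without MY3. *Slc18a3* missed the fold rule without MO3 (-0.58) or WO1 (-0.58), and *Mnx1* passed it without WY3 (-0.65). Relative to the pan-neuronal genes, which moves the median of all genes to 0.29, *Chat* (-0.57), *Slc5a7* (-0.47) and *Slc18a3* (-0.36) passed the FDR and none of the 7 passed limma with the fold rule.

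**Figure D3:**
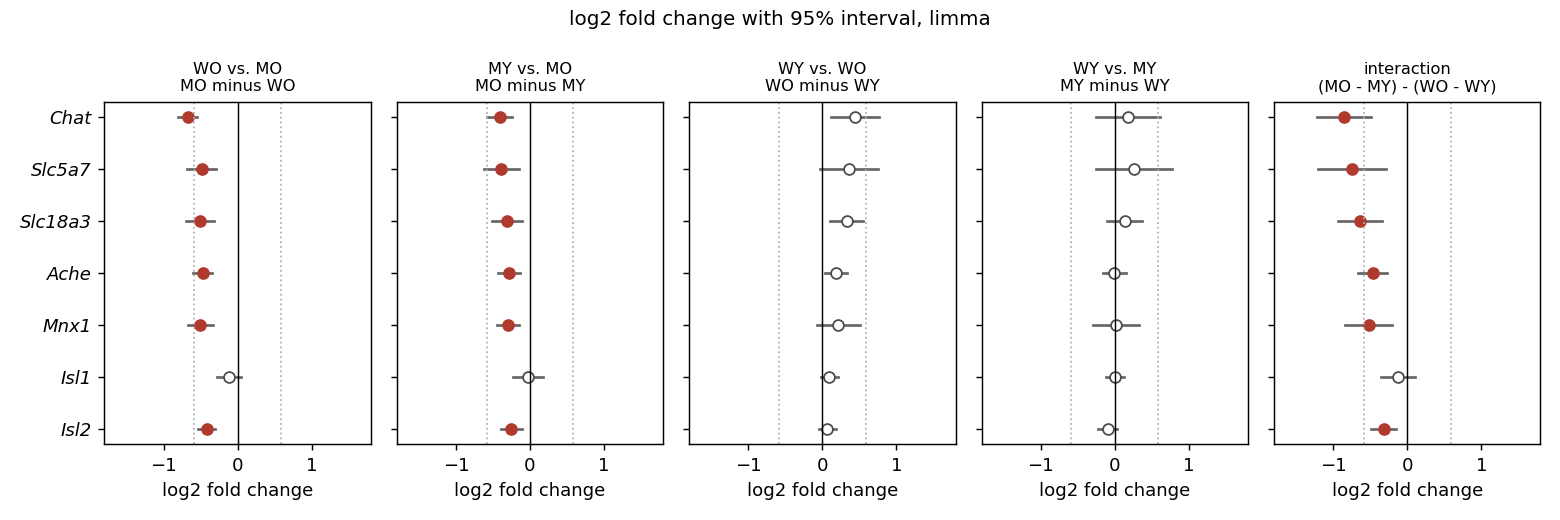
Log2 fold change of the 7 genes (rows) in the 4 comparisons and the interaction, on horizontal axes from limma fits. Points are estimates, filled where the FDR is at or below 0.05, lines are 95% intervals, and dotted lines mark a 1.5-fold change. In WO vs. MO *Chat*, at -0.67, is the 1 point past the dotted line, and *Isl1* is open in every panel.

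The other genes of acetylcholine handling were mixed in WO vs. MO. Of 5 vesicle and esterase partners 4 were lower and 0 higher (median -0.26), 3 without MO5 and 2 relative to the pan-neuronal genes. *Slc10a4*, a synaptic vesicle protein found with the vesicular transporter, was differentially expressed at -0.67 (SE 0.087, FDR = 0.00031), close to *Chat*. *Prima1*, which anchors acetylcholinesterase in the membrane, was at -0.58 (SE 0.11, FDR = 0.00239), *Colq*, its collagen tail in muscle, at -0.26 (FDR = 0.0176) and *Bche*, a related esterase, at -0.23 (FDR = 0.0411). *Bche* lost its FDR without any 1 of MO1, MO2, MO3, MO5, WO3, WO4 or WO5 (at most 0.0962), and *Prima1* passed the fold rule without any 1 of MO3, MO4, MO5, WO1 or WO2. With batch 1 alone *Prima1* (-0.55, FDR = 0.0563), *Colq* (-0.30, FDR = 0.0953) and *Bche* (-0.24, FDR = 0.202) lost their FDR. Of 11 choline supply genes with values, of 12 listed, 2 were lower and 3 higher, with 2 and 2 without MO5 and 2 and 1 after quantile normalization. Relative to the pan-neuronal genes 2 were lower and 8 higher, where 397 of all 18167 genes were lower and 11353 higher. *Acly*, a source of cytosolic acetyl-CoA, was at -0.46 (FDR = 5.05e-05) and *Pcyt1b* of phosphatidylcholine synthesis at -0.42 (FDR = 0.000119), while the choline transporter-like genes *Slc44a2* (0.58, FDR = 7.05e-05), *Slc44a3* (0.31, FDR = 0.0223) and *Slc44a1* (0.17, FDR = 0.0484) were higher. *Slc44a2* passed the fold rule without MO2 (0.59), MO4 (0.62) or WO5 (0.59). *Slc44a3* lost its FDR without MO2, MO3 or WO4 (at most 0.055), and *Slc44a1* without MO2, MO4, MO5, WO1, WO2, WO3 or WO5 (at most 0.109), and both lost it with batch 1 alone (0.31, FDR = 0.0568, and 0.17, FDR = 0.234).

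Receptor genes were also examined in WO vs. MO. Of 13 nicotinic subunit genes with values, of 16 listed, 4 were lower and 0 higher (median -0.10), against 12.9% and 15% of all genes, but relative to the pan-neuronal genes 1 was lower and 6 were higher, and after quantile normalization 7 were lower and 0 higher. Of all 18167 genes 397 were lower and 11353 higher relative to the pan-neuronal genes, and 3409 and 2341 after quantile normalization. Higher counts under the first scaling, here and in every other list, therefore go with a shift of the whole table. The 4 lower in the unscaled fit were *Chrna7* (-0.45, FDR = 0.0021), *Chrna4* (-0.35, FDR = 0.00122), *Chrna2* (-0.22, FDR = 0.0187) and *Chrnb2* (-0.11, FDR = 0.0487), and *Chrnb2* turned to 0.10 relative to the pan-neuronal genes and lost its FDR without any 1 of MO2, MO3, MO4, MO5, WO2, WO3, WO4 or WO5 (at most 0.119). With batch 1 alone *Chrna7* (-0.43, FDR = 0.0652) and *Chrnb2* (-0.087, FDR = 0.351) lost their FDR. Among 6 receptor helper genes, of 7 listed, 4 were lower (3 without MO5, and 0 lower and 2 higher relative to the pan-neuronal genes), including the membrane modulator *Lynx1* (-0.27, FDR = 0.00155), and *Ly6h* was at 0.21 (FDR = 0.0761, and 0.00169 without MO1). Of 5 muscarinic receptors, *Chrm2*, the main one of the cord by level, was differentially expressed at -0.75 (SE 0.14, FDR = 0.00218) and *Chrm1* was higher (0.20, FDR = 0.0438), with 4 higher relative to the pan-neuronal genes and 0 after quantile normalization. *Chrm1* lost its FDR without any 1 of MO2, MO3, MO4 or a WO mouse (at most 0.098), and with batch 1 alone (0.25, FDR = 0.113). *Chrm2* is not confined to motor neurons.

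Other motor neuron genes did not move as a block. Of 19 further transcription factors of motor neuron development 3 were lower and 3 higher, near the shares of all genes given above (1 lower without MO5, 8 lower after quantile normalization, and 1 lower and 10 higher relative to the pan-neuronal genes), and *Lhx4*, a LIM homeodomain partner of the ISL proteins, was the 1 past both rules. It was at 1.40, 1.12, 1.33, 1.33 and 1.37 in the WO mice and at 0.58, 0.68, 0.56, 0.55 and 0.63 in the MO mice, with a log2 fold change of -0.71 (SE 0.055, FDR = 2.16e-05), larger than those of *Mnx1* and *Isl2* on this scale. Of 11 genes enriched in motor neurons 5 were lower and 3 higher, with 4 and 5 relative to the pan-neuronal genes. *Chodl*, a marker of fast motor neurons, was at 4.48, 4.37, 4.36, 4.38 and 4.59 in the WO mice and at 2.18, 2.68, 2.45, 3.50 and 2.67 in the MO mice, a log2 fold change of -1.74 (SE 0.20, FDR = 0.000129). *Mmp9* (-0.70, FDR = 5.05e-05), also of fast motor neurons, and *Vipr2* (-0.63, FDR = 0.00024) were differentially expressed, and *Esrrg*, a nuclear receptor of gamma motor neurons, was at -0.43 (FDR = 0.000155). The neuropeptide genes *Uts2* (1.61, SE 0.24, FDR = 0.000725) and *Calca* (1.38, SE 0.22, FDR = 0.00102) went the other way and were higher in every MO mouse than in every WO mouse. *Calca* and *Uts2* are also made outside motor neurons, and the cells behind their rise were not tested.

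Markers of other neurons and of glia moved with these results. Of 8 genes of other transmitters 3 were lower and 1 higher (2 and 3 relative to the pan-neuronal genes, and 4 and 1 both without MO5 and after quantile normalization), among them the glycine transporter *Slc6a5* (-0.78, SE 0.14, FDR = 0.00224) and the vesicular transporters *Slc32a1* (-0.43, FDR = 3.44e-05) and *Slc17a6* (-0.21, FDR = 0.0135). *Slc17a6* lost its FDR with batch 1 alone (-0.25, FDR = 0.0976) and was at -0.0028 (FDR = 0.969) relative to the pan-neuronal genes, where *Slc6a5* (-0.57) and *Slc32a1* (-0.22) were still lower by the FDR. Of 8 pan-neuronal genes 6 were lower and 0 higher (median -0.25, against -0.49 for the 7 members), for example *Snap25* at -0.41 (FDR = 0.000259) and *Tubb3* at -0.32 (FDR = 0.015), and without MO5 4 were lower. Relative to their own mean 1 was lower and 2 were higher. *Tubb3* lost its FDR with batch 1 alone (-0.35, FDR = 0.11). Their summed FPKM, led by *Snap25*, was 3149, 2885, 2892, 2832 and 2974 in the WO mice, 2305, 2483, 2289, 2504 and 2271 in the MO mice, 2801, 2705 and 2786 in the MY mice and 2602, 2680 and 2633 in the WY mice. No MO mouse reached the lowest mouse of another group.

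All 5 microglia markers were differentially expressed and higher in MO, from 0.99 for *Itgam* (FDR = 0.000431) and 1.14 for *Cx3cr1* to 1.68 for *Ptprc*, 3.05 for *Itgax* and 3.22 for *Cd68* (SE 0.26, FDR = 2.34e-05). *Cd68* was the most abundant of them in MO mice, and *Cx3cr1* in the other groups. Their summed FPKM was 91.6, 122.5, 179.7, 79.6 and 98.5 in the MO mice, 25.5, 25.8, 25.8, 20.2 and 19.9 in the WO mice, 24.5, 26.8, 25.3 in the MY mice and 26.6, 27.5 and 23.5 in the WY mice. Of 5 astrocyte markers 4 were higher (5 relative to the pan-neuronal genes), led by *Gfap* (1.60, FDR = 1.46e-05), then *Aqp4* (0.83) and *Aldh1l1* (0.69), with summed FPKM of 2515, 3300, 2992, 2435 and 2620 in MO and 1096, 1109, 1190, 1233 and 1010 in WO, and of 1388, 1414 and 1356 in MY and 1602, 1537 and 1477 in WY. FPKM is a share of all reads, and the part of the glial increase in the decrease of the 7 genes was not tested.

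Of 4 oligodendrocyte genes 1 was lower (0 relative to the pan-neuronal genes), and *Mog* was at -0.30 (FDR = 0.239). *Mog* passed the FDR with batch as a term (-0.30, FDR = 0.0423) and with batch 1 alone (-0.44, FDR = 0.0417). Their summed FPKM, led by *Mbp* in every mouse but WO4, was 7181, 6568, 6365, 1058 and 20070 in the WO mice, 5222, 5249, 5553, 18630 and 18930 in the MO mice, 9536, 9321 and 8963 in the MY mice and 10890, 8910 and 9387 in the WY mice. The batch 2 mice (WO4, WO5, MO4 and MO5) held the lowest sum and the 3 highest, and the old mice of batch 1 ran from 5222 to 7181. Of 4 Schwann cell genes 1 was higher, *Egr2* (0.82, FDR = 6.97e-05), and 2 relative to the pan-neuronal genes, with the sum at most 3.199 in any mouse. Of 9 sensory ganglion genes with values, of 11 listed, 2 were lower and 1 higher (1 and 1 without MO5, and 0 and 6 relative to the pan-neuronal genes), with a sum between 3.36 and 4.305. The most abundant, *Pou4f1*, was at 0.011 (FDR = 0.927) and *P2rx3* at -0.15 (FDR = 0.0326), which lost its FDR without MO2, MO3, MO5, WO2, WO3 or WO4 (at most 0.0718), and with batch 1 alone (-0.20, FDR = 0.107), and turned to 0.056 relative to the pan-neuronal genes. Of 8 muscle genes 1 was lower (0 without MO5, and 0 lower and 5 higher relative to the pan-neuronal genes) and 1, *Tnni2* (0.86, FDR = 0.00144, and 0.74, FDR = 0.0672, with batch 1 alone), higher, with a sum of at most 5.14. Blood genes did not pass limma's FDR in any of 6 with values (2 at an unadjusted p under 0.05, against 6986 of the 18167 genes), but 1 was lower after quantile normalization and 2 were higher relative to the pan-neuronal genes. Their summed FPKM was 41.7 in MO1 and 143.4 or more in every other mouse, led by *Hbb-b1* (-0.81, FDR = 0.165) with *Hba-a1* at -0.89 (FDR = 0.142). *Hba-a2* and *Hbb-bs* were near 0 in every mouse, and reads of such near-identical copies may not have been told apart. None of the 5 sex-linked genes passed limma's FDR (0 at an unadjusted p under 0.05). The part of any of these lists in the decrease of the 7 genes was not tested.

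The genes most like each member were found by Pearson's r over the 16 mice among genes with a mean log2 level of at least 1. The points share their libraries and the group differences, so r is a description. The values of r before and after group means were subtracted both include WY1. In several neuronal genes this mouse stays apart from WY2 and WY3 after the subtraction, and r after the subtraction was not computed without it. For *Chat* they were *Pip5k1b* (r = 0.95, and 0.81 after group means were subtracted), *Dync1i1* (0.95 and 0.82), *Lgr5* (0.95 and 0.81), *Zfyve28* (0.94 and 0.79) and *Fam120b* (0.94 and 0.89). The pattern of *Slc5a7* was closest to *Pls3* (0.97 and 0.95), *Atl1* (0.94 and 0.90) and *Isoc1* (0.94 and 0.89), that of *Slc18a3* to B230312C02Rik (0.95 and 0.83), *Atxn7l3* (0.94 and 0.77) and *Gsk3a* (0.94 and 0.79). *Ache* was nearest to *Sstr3* (0.96 and 0.82), 6030419C18Rik (0.96 and 0.71) and *Fam189b* (0.95 and 0.81). *Mnx1* had *Irx3* (0.93 and 0.76), *Nell1* (0.93 and 0.77) and, as the 1 member that appeared in another's list, *Slc18a3* (0.93 and 0.80). For *Isl2* they were *Necab3* (0.95 and 0.57), *Kcnj14* (0.95 and 0.75) and *Fgf11* (0.94 and 0.67). *Isl1* had no partner as close: *Mkx* (0.77 and 0.71), *Tfdp2* (0.76 and 0.84) and *Chp1* (0.73 and 0.67).

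The stretches upstream of *Chat*, *Slc18a3* and *Slc5a7* are shown because the first pair lie in one locus, and all 3 RNAs were lower in MO. Sequences are from RefSeq (GRCm38.p6), minus strand, 5′ to 3′ up to the GENCODE start: chr14:32465990-32466159 for *Chat* (170 bases), chr14:32464851-32465100 for *Slc18a3* (250 bases, within the *Chat* intron) and chr17:54299035-54299284 for *Slc5a7* (250 bases). Capitals mark TAAT, the homeodomain core, or CCAAT, the CCAAT box, on either strand, and the TAAT upstream of *Slc18a3* is on the other strand and reads ATTA. All 7 members had a window of 300 bases (250 before and 50 after a start) in the same table. TAAT was in 3 of 7 windows (*Slc18a3*, *Mnx1* and *Isl1*), against 58% of all 32851 windows. CCAAT was in 4 of 7 (*Chat*, *Mnx1*, *Isl1* and *Isl2*), against 37.4%. CATTAG, a motif of LIM homeodomain factors, was in 0 of 7, against 7.36%. A match or its absence is a description of these letters. GC content was 54.7% for *Chat*, 66% for *Slc18a3* and 45.6% for *Slc5a7* in the stretches shown.
Chat: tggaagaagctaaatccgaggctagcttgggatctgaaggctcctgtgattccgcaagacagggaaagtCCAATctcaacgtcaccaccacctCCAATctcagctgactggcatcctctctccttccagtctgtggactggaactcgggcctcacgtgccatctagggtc
Slc18a3: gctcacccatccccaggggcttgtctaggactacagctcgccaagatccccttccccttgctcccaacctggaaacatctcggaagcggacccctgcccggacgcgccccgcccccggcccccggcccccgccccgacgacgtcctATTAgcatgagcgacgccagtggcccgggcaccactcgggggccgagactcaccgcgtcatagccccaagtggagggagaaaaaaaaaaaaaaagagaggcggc
Slc5a7: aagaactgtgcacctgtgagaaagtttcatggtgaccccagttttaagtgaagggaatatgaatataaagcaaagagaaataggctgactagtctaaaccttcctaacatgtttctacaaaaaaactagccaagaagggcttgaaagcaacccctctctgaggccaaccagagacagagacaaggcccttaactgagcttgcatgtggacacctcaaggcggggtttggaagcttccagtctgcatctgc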

How the data were processed

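Spinal cord RNA of 16 mice was sequenced by the authors from a stranded mRNA kit on an Illumina sequencer. The deposited values are log2(1 + FPKM): the authors trimmed with Trimmomatic, used TopHat on mm10, computed FPKM with Cufflinks, added 1, took log2, dropped genes at 0 in many samples and corrected for 2 batches with ComBat. Versions, gene annotation and ComBat covariates were not given in the sources used here. The table held 915 values below 0 and no counts, so the reads behind a value are unknown and precision rests on how far mice of a group differ. Library sizes stated by the study were not used here. FPKM levels are the deposited values turned back, with those below 0 set to 0.

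Each comparison was fitted on its own 2 groups in limma 3.58.1 (R 4.3.3, lmFit and eBayes, two-sided, Benjamini-Hochberg over 18167 genes), second group minus first, and the interaction on all 16 mice. The fits were tested on simulated data with planted changes larger than those of the members, so this test does not show how often changes of the members' size are found. Differentially expressed means an FDR at or below 0.05 and a fold change of at least 1.5. Alternatives were batch 1 only, batch as a term, all groups in 1 fit, quantile normalization, a mean of at least 1, a pseudocount of 0.1, an intensity trend, the replicate number as a block, the FDR alone and each mouse left out. Scaling to 8 pan-neuronal genes and leaving out both WY1 and MO5 were chosen after seeing the data. The named list genes were those past both thresholds in any comparison (at most 6 a list), or else the 2 most abundant, and *Xist*, *Mbp*, *Chrna2*, *Chrna7*, *Slc44a2*, *Slc44a3*, *Pcyt1b*, *Chrm1*, *Colq*, *Bche*, *Slc17a6*, *Slc32a1*, *Ddx3y*, *Mylpf*, *Tph2* and the near-zero markers were named after their values were seen. Of the listed marker genes 3 are not reported here and were left out of the list counts and sums. The members, lists and motifs were chosen with earlier results of these data known. Positions are from GENCODE M21 and promoters from RefSeq GRCm38.p6. The motif TAAT was searched on both strands, as was CATTAG. The motif CCAAT, searched likewise, was chosen after the sequences were seen. Figures were drawn in matplotlib 3.10.9 with Python 3.11.15.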

Additional observations from a re-analysis of the deposited data

Results flagged for a closer look

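In 6 genes the change between ages in mutants differed from that in wild-type mice by the limma interaction, (MO - MY) - (WO - WY). Of all genes 7.19% had a lower value by the same FDR. The values were -0.85 for *Chat*, -0.75 for *Slc5a7*, -0.64 for *Slc18a3*, -0.46 for *Ache*, -0.52 for *Mnx1* and -0.32 for *Isl2*. Without WY1, in the same order, they were -0.64, -0.49, -0.55, -0.45, -0.39 and -0.37, and *Mnx1* had an FDR of 0.0735. With batch 1 alone *Slc5a7* (FDR 0.0575) and *Mnx1* (FDR 0.0802) did not pass. Relative to the pan-neuronal genes *Ache* (-0.18, FDR 0.132), *Mnx1* (-0.24, FDR 0.113) and *Isl2* (-0.039, FDR 0.691) did not pass.

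Of 14 sets of 5 mice tested for a distant value (7 genes in WO and in MO), 2 held one, where chance gives about 1 in 20. *Isl1* in WO4 was at 0.99, below the other WO mice. *Isl2* in WO1 was at 1.55, above the other WO mice.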

How the results depend on the processing

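Each of the 6 members called lower by the FDR in WO vs. MO stayed below an FDR of 0.05 in all 10 fits with 1 mouse left out and in 9 other fits (at most 0.0458, for *Slc18a3*), and *Isl1* passed in none of them. Over the alternatives run, the members kept their direction and their call in 624 cases, gained a call in 20, lost it in 13 and turned sign in 15. By the FDR by itself, members no longer passed in 33 and newly passed in 0 of 672. For the other genes examined in WO vs. MO the first counts were 862, 39, 7 and 7, and by the FDR 77 and 5 of 915. All these counts include the FDR alone, which is the main fit called without the fold rule. Calls gained under it were fixed in advance and are not by the definition of differentially expressed used here, and no FDR can change under it.

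The count of members past both thresholds in WO vs. MO, 1 of 7, was 2 after quantile normalization, 3 with a pseudocount of 0.1, 6 by the FDR alone and 0 relative to the pan-neuronal genes. In MY vs. MO it went from 0 to 6 by the FDR alone. In the interaction it went from 3 to 6 by the FDR alone, 0 relative to the pan-neuronal genes, 1 without both WY1 and MO5 and 1 to 4 with 1 mouse left out. It was also 4 after quantile normalization, 4 with a pseudocount of 0.1 and 2 with batch 1 alone. *Mnx1* passed both thresholds after quantile normalization (-0.62, FDR = 0.0122) and with the pseudocount of 0.1 (-0.88, FDR = 0.0255). The number of genes differentially expressed in WO vs. MO, 836, was 1529 with a pseudocount of 0.1, 5075 by the FDR alone and 1377 relative to the pan-neuronal genes. In MY vs. MO, in the same order, 890 became 1483, 4646 and 1409, and in the interaction 1020 became 1548, 3210 and 2259. After quantile normalization the count over all genes was 802 in WO vs. MO and 992 in the interaction. For the interaction it was 952 with batch 1 alone and 808 without WY1. In WY vs. WO 46 became 73 with batch 1 alone, 80 with batch as a term, 204 by the FDR alone, 74 relative to the pan-neuronal genes and 7 to 64 with 1 mouse left out. In WY vs. MY 1 became 4 with all groups in 1 fit, 2 with a mean of at least 1, 2 with an intensity trend, 2 relative to the pan-neuronal genes and 1 to 5 with 1 mouse left out.

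Values that turned sign were small. Relative to the pan-neuronal genes *Isl1* was at 0.098 in WO vs. MO, 0.17 in MY vs. MO, -0.061 in WY vs. MY and 0.16 in the interaction, *Isl2* at -0.014 in WY vs. WO, *Mnx1* at -0.0545 in WY vs. MY, and in WO vs. MO *Chrnb2* was at 0.10 and *P2rx3* at 0.056. After quantile normalization *Ache* was at 0.029 in WY vs. MY and *Pou4f1* at -0.092 in WO vs. MO. With 1 mouse left out, *Isl1* ran from -0.066 to 0.036 in MY vs. MO and from -0.0285 to 0.033 in WY vs. MY, *Pou4f1* from -0.030 to 0.049 in WO vs. MO. With 1 mouse left out of WY vs. MY, *Chat* ran from -0.034 to 0.29, *Ache* from -0.054 to 0.053 and *Mnx1* from -0.12 to 0.14. The cause was not tested.

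Deviations of mice of one number had r from -0.21 to 0.091 in WO vs. MO, 0.085 to 0.18 in MY vs. MO, -0.13 to 0.38 in WY vs. WO and -0.20 to -0.019 in WY vs. MY. In no comparison was every r over 0.1, so the numbers were not taken to pair mice. With the replicate number as a block, the genes differentially expressed were 840 in WO vs. MO (1 member), 1108 in MY vs. MO (0 members), 63 in WY vs. WO, 1 in WY vs. MY and 1008 in the interaction (3 members). By the FDR, *Slc18a3* and *Mnx1* in MY vs. MO and *Mnx1* in the interaction no longer passed under the block, nor did *Slc44a1*, *Chrnb2*, *Tubb3* (0.056), *P2rx3*, *Chrna2* (0.061), *Bche* and *Slc17a6* (0.0585) in WO vs. MO. WY and MY mice were in 1 batch, so batch as a term could not be run for WY vs. MY.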
